A study of Mus musculus with 10 samples.

Results

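The signalling route examined here links injured photoreceptors and Müller glia, the radial glia of the retina, through LIF, CNTF, endothelin and FGF2. Its 10 genes were taken from a fixed list by role: the ligands Lif, Cntf, Edn2 and Fgf2, the receptors Lifr, Il6st, Cntfr and Ednrb, and the intracellular genes Stat3 and Socs3. Of these 10, the deposited gene tables hold 9 among their 11702 genes. Lif has no row there, and its values below are sums of its transcripts, which the deposited transcript table does hold. In the reference annotation (GRCm38) Lif, Stat3 and Socs3 lie on chromosome 11, Edn2 and Cntfr on chromosome 4, and Fgf2, Il6st, Ednrb, Lifr and Cntf on chromosomes 3, 13, 14, 15 and 19.

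RNA came from whole retinas of female mice collected at P36, after intravitreal injections of 1 μL at P10 and again at P24. WT mice given DMSO made up 4 libraries (W1 to W4, all in batch 1). The rd10 mice (B6.CXB1-Pde6brd10/J) are mutant for Pde6b, which encodes part of the phosphodiesterase of rods, and lose their rods early. They received DMSO in 3 libraries (D1 and D2 in batch 1, D3 in batch 2) or 20 μM halofantrine, an antimalarial drug, in 3 libraries (HAL; H1 in batch 1, H2 and H3 in batch 2). The titles also carry set tags, whose meaning the labels do not give and which differ between the groups: set1 for W1 to W3, set1_5 for W4, set2 for D1, D2 and H1, last_rd10 for H2 and H3 and final_rd10 for D3. Every group was injected, so the injection is common to all values, and the strain of the WT mice is not given in the sources used here. The labels do not say whether a library is 1 retina or several, so p-values measure the spread between these libraries.

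In the damaged retina, LIF is a cytokine made by a subset of Müller glia. LIF binds LIFR together with the shared chain gp130 (Il6st), while CNTF also needs its own receptor chain, CNTFR, and both activate STAT3 through JAK kinases, with SOCS3 as the feedback brake. Endothelin-2 from photoreceptors acts on the receptor EDNRB of Müller glia, and FGF2 is a growth factor known to protect photoreceptors.

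Promoter stretches are shown for the members whose upstream window held either of the searched motifs, to show where the letters lie. All but 1 of the 10 members are higher in rd10 retina below, so these 3 do not stand apart in that. The windows are the 250 bases before each RefSeq start (GRCm38.p6), and all 10 members had at least 1. The STAT-type palindrome TTCNNNGAA reads the same on both strands and was present in 7.02% of 32851 such windows, and the AP-1-type TGANTCA in 6.75%. The palindrome occurred in the Socs3 window and TGANTCA in the Lif and Cntf windows, at 154, 228 and 245 bases before the start. Capitals mark the motif in the 150 bases from 250 to 101 before the start, 5′ to 3′ on the gene's strand. The stretch of Socs3 is chr11:117969467-117969616 on the minus strand, that of Lif chr11:4257318-4257467 on the plus strand and that of Cntf chr19:12765733-12765882 on the minus strand. Each held 0 exon bases of the GENCODE M21 annotation (GRCm38). That of Socs3 lies upstream of the RefSeq start but within the span of the annotated transcript Socs3-202, whose start is further upstream, that of Cntf within the span of Zfp91-203 on the same strand, and that of Lif within no annotated transcript.
Socs3: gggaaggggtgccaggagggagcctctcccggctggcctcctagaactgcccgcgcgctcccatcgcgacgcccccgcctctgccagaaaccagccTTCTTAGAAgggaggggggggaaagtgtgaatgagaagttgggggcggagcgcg
Lif: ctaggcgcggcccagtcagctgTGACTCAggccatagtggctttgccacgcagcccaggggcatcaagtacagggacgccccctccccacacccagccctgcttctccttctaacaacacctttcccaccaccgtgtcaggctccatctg
Cntf: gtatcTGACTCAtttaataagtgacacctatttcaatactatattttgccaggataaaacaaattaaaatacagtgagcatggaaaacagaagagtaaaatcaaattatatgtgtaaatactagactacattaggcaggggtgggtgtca
The letters TTCNNNGAA and TGANTCA did not occur in the windows of the other members. A match describes the letters only and is not a measured binding site.

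The summed gene counts of a library lay between 15512212 and 38160436. Levels are given as CPM, counts scaled to equal library totals with edgeR's TMM factors over the 10 libraries. In W1, W2 and W3 the level of Pde6b was 2700, 2850 and 2860 CPM, in the rd10 libraries 125 to 387 CPM, and in W4 93.1 CPM. The summed level of 12 rod markers in W4 was 3120 CPM, against 79500 to 83500 in W1 to W3 and 3990 to 11700 in rd10. W4 thus goes against its label by Pde6b, W4 below means the library labelled WT, and the members' differences from WT are given with and without it. Summed markers of Müller glia (10 of 10 listed genes measured) were at 4490 to 4650 CPM across W1 to W3 and 6890 to 8380 in rd10, of astrocytes (4 of 5) at 49.0 to 55.5 and 125 to 135, of microglia (6 of 10) at 30.3 to 38.0 and 153 to 190. The lists of inner retina and vessels were higher in rd10 too, with no overlap: bipolar cells (10 of 10) at 1690 to 1770 and 2510 to 2820 CPM, amacrine cells (9 of 10) at 1540 to 1600 and 2300 to 2700, ganglion cells (10 of 10) at 1060 to 1150 and 1320 to 1590, horizontal cells (4 of 5) at 83.4 to 87.1 and 122 to 136, and endothelial and mural cells (6 of 10) at 341 to 378 and 599 to 783. Cone markers (10 of 10) were at 2130 to 2290 and 2120 to 2700 CPM. All these lists but that of cones move with the genotype, and their part in the members' values was not tested. The remaining lists varied between single libraries. Blood markers (3 of 5) were at 34.2 to 60.3 CPM across W1 to W3, 15.5 to 30.8 in rd10 DMSO, 11.8 in H1, 96.5 in H2 and 79.6 in H3, RPE markers (6 of 8) at 48.2 to 294, 164 to 487 and 132 to 233 in the 3 groups, and lens markers (3 of 8) at 22.5 CPM in H2 and at most 5.54 elsewhere. In whole retina, fewer cells of a type and less RNA per cell cannot be told apart.

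Lif was low in W1 to W3 and higher than there in every rd10 library. Its transcripts summed to 0.854, 0.857 and 0.817 CPM across W1 to W3, to 4.42, 7.45 and 3.01 CPM in D1 to D3 and to 5.26, 5.14 and 3.56 CPM in H1 to H3. W4 was at 3.83 CPM, inside the rd10 range, and the other WT libraries lay below all rd10 libraries. The values of W1 to W3 rest on 14.0 to 18.0 counts, that of W4 on 103.0 and the rd10 values on 49.1 to 297.1.

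Cntf was likewise higher in every rd10 library than in W1 to W3. It was at 5.27, 4.34 and 4.96 CPM across W1 to W3, at 10.7, 10.5 and 13 CPM in D1 to D3 and at 8.18, 12.7 and 13.1 CPM in H1 to H3, with W4 at 11.4. H1 was the lowest rd10 library and still lay above W1 to W3. Of the 1073 exon bases of Cntf in the reference annotation, 847 are shared with Zfp91 on the same strand, so reads of the shared stretch could be assigned to either gene. Zfp91, which encodes a zinc finger protein, differed by -0.16 ± 0.05 (log2, SE, edgeR adjusted p = 0.0329) between rd10 DMSO and W1 to W3, the opposite direction to Cntf, and was not called in rd10 HAL against W1 to W3 (-0.13, edgeR adjusted p = 0.0876) or in rd10 DMSO against WT with W4 kept (-0.13, edgeR adjusted p = 0.294).

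Edn2 and Fgf2 were higher in all rd10 libraries than in all WT libraries, W4 included. Edn2 was at 7.31, 7.26 and 5.95 CPM across W1 to W3, at 19.9, 27.1 and 34.3 CPM in D1 to D3 and at 25.9, 34.6 and 24.2 CPM in H1 to H3. Fgf2 was at 33.9, 34.1 and 33.6 CPM across W1 to W3, at 86.1, 112 and 158 CPM in D1 to D3 and at 80.6, 105 and 107 CPM in H1 to H3. For both ligands W4, at 15.5 and 69.2 CPM, stood above the other WT libraries and below all 6 rd10 libraries. D3, the shallowest library and the one with the highest summed rod level of the rd10 libraries (11700 CPM), was the highest DMSO library for both. Fgf2 shares 255 of its 6782 exon bases with Gm43439 on the same strand, so reads of that stretch could be assigned to either gene. It shares 640 with Nudt6 on the opposite strand. The libraries were strand-specific, but the strand setting of the pseudoalignment is not given in the sources used here.

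The receptors did not move as a block. Lifr was the only member lower in rd10, at 114, 112 and 128 CPM across W1 to W3, 46.4, 52.6 and 64.1 in D1 to D3 and 43.6, 50.7 and 52.1 in H1 to H3, with W4 at 46.5. Its partner chain Il6st was higher, at 140, 134 and 147 CPM across W1 to W3, 238, 241 and 202 in D1 to D3 and 218, 212 and 213 in H1 to H3, with W4 at 215. The gp130 chain thus went the opposite way to the LIF-binding chain in the same libraries on this scale, and neither gene's rd10 values overlapped W1 to W3.

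Cntfr was at 32.2, 29.6 and 25.9 CPM across W1 to W3, 58.7, 59.3 and 37.7 in D1 to D3 and 69.8, 51.2 and 49.1 in H1 to H3, with W4 at 50.3. The 3 batch 2 libraries D3, H2 and H3 were below the 3 batch 1 rd10 libraries. Ednrb was at 7.02, 9.58 and 6.48 CPM across W1 to W3, 20.6, 16.1 and 16.4 in D1 to D3 and 18.4, 11.8 and 9.58 in H1 to H3, with W4 at 15.3. At 3 significant digits H3 equalled W2, the closest approach of an rd10 library to W1 to W3 for any member.

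The intracellular genes were both higher in rd10. Stat3, the transcription factor of the route, was at 76.5, 74.7 and 82.3 CPM across W1 to W3, 185, 217 and 250 in D1 to D3 and 188, 195 and 181 in H1 to H3. W4 was at 162 CPM, below all rd10 libraries. Stat3 shares 72 of its 9527 exon bases with Stat5a on the opposite strand. Socs3, which encodes the protein that blocks gp130 signalling, was at 3.51, 1.97 and 2.74 CPM across W1 to W3, 16.3, 20.7 and 15.7 in D1 to D3 and 16.6, 13.7 and 13.7 in H1 to H3. W4 reached 15.7 CPM for Socs3, inside the rd10 range. Among the 9 genes of the gene tables, the fewest counts lay behind the values of Socs3 in W1 to W3, 39.0 to 74.0, against 255.0 to 825.0 in rd10.

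**Figure D1:**
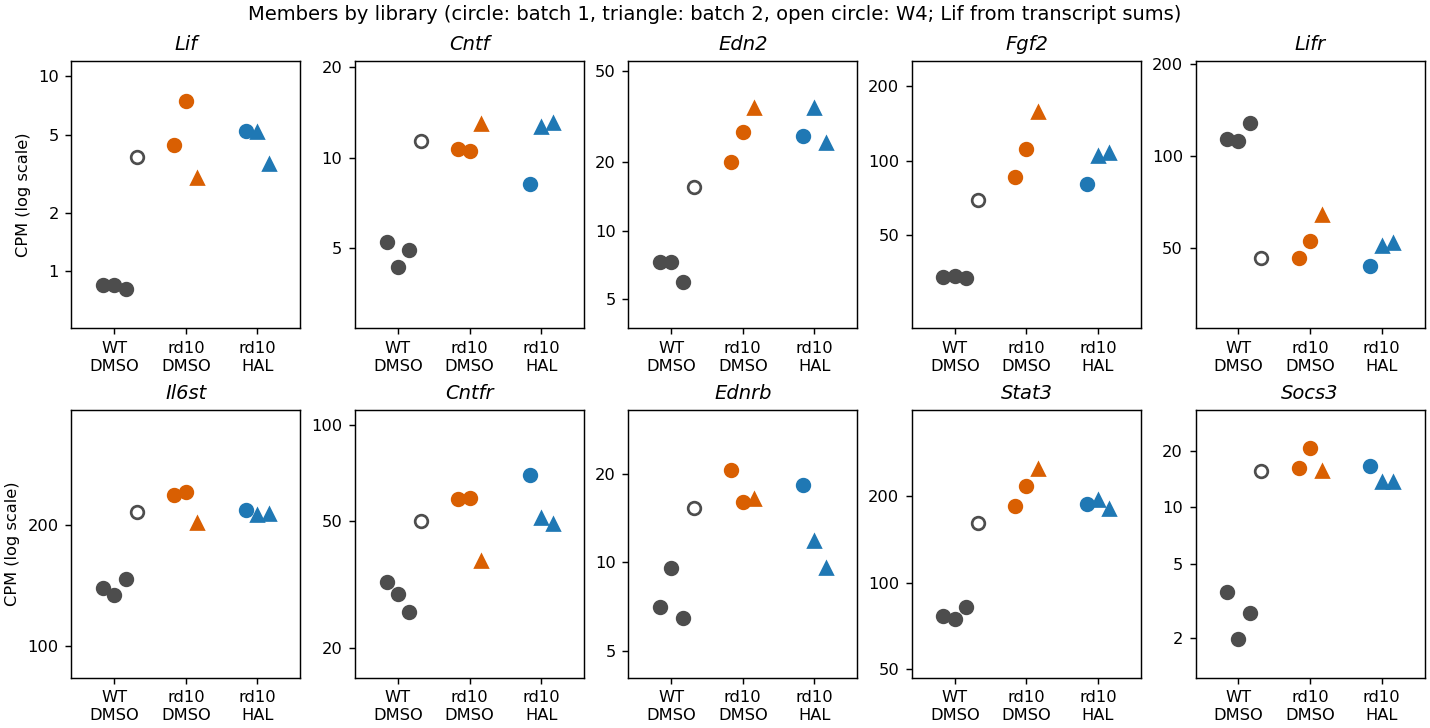
Level of each member in CPM (log axis, a scale of its own in each panel) in the 10 libraries by group, circles for batch 1, triangles for batch 2, the open circle for W4; each point is 1 library. W4 sits with the rd10 libraries for Lif, Cntf, Lifr, Il6st, Cntfr, Ednrb and Socs3 and between the groups for Edn2, Fgf2 and Stat3, where it is at 15.5, 69.2 and 162 CPM.

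To order the members by abundance, CPM was divided by the count-weighted length of each gene's transcripts (CPM per kilobase, mean ± SD over 3 libraries). In W1 to W3 the order was Il6st (21.1 ± 1.02), Stat3 (18.8 ± 0.959), Cntfr (15.5 ± 1.67), Lifr (13.1 ± 0.987), Fgf2 (5.76 ± 0.0445), Edn2 (4.68 ± 0.526), Cntf (4.52 ± 0.442), Ednrb (1.96 ± 0.423), Socs3 (1.08 ± 0.304) and Lif (0.222 ± 0.00588). Cntfr and Lifr, and Edn2 and Cntf, did not differ beyond their SDs. In rd10 DMSO, Stat3 led with 52.5 ± 7.75, followed by Il6st (34.2 ± 3.24), Cntfr (27.5 ± 6.52), Fgf2 (20.2 ± 6.22), Edn2 (18.5 ± 4.91), Cntf (10.6 ± 1.32), Socs3 (6.92 ± 1.07), Lifr (6.03 ± 0.998), Ednrb (4.52 ± 0.651) and Lif (1.31 ± 0.598). Lifr thus moved from above Fgf2, Edn2 and Cntf to below all 3 of them, and Socs3 from below Ednrb to above it. The neighbours from Il6st to Edn2, and those from Socs3 to Ednrb, overlapped within their SDs. With halofantrine the levels were 45.5 ± 1.72 for Stat3, 32.3 ± 0.488 for Il6st, 30.0 ± 6.05 for Cntfr, 19.3 ± 3.79 for Edn2, 16.6 ± 2.49 for Fgf2, 10.6 ± 2.54 for Cntf, 5.77 ± 0.654 for Socs3, 5.42 ± 0.505 for Lifr, 3.39 ± 1.17 for Ednrb and 1.23 ± 0.25 for Lif. There Il6st and Cntfr, Edn2 and Fgf2, and Socs3 and Lifr overlapped within their SDs.

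The comparison of rd10 DMSO with WT DMSO asks how the route differs between degenerating and WT retina under vehicle. Without W4, all 9 members in the gene tables passed edgeR's quasi-likelihood test at an adjusted p under 0.05 (Benjamini-Hochberg over 11696 genes), 8 higher and 1 lower in rd10. Read against this, 32.3% of all genes tested were called higher and 29.9% lower, so a call alone sets no member apart. Socs3 rose most, by 2.69 ± 0.22 on the log2 scale (SE, 6.46-fold, adjusted p = 6.35e-05). Edn2 rose by 1.99 ± 0.21 (3.97-fold, adjusted p = 0.000164) and Fgf2 by 1.82 ± 0.21 (3.52-fold, adjusted p = 0.00023). Stat3 rose by 1.49 ± 0.11, 2.82-fold, with the smallest adjusted p of the members (4.43e-05).

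Among the remaining members, Cntf rose by 1.24 ± 0.15 and Ednrb by 1.21 ± 0.18 on the log2 scale (edgeR adjusted p = 0.000342 and 0.000802). Cntfr rose by 0.84 ± 0.18 and Il6st by 0.71 ± 0.08 (edgeR adjusted p = 0.00456 and 0.000246). Lifr fell by 1.11 ± 0.12, to 0.462 of the WT level (edgeR adjusted p = 0.000201). The median of the 9 was 1.24, against -0.01 over all genes tested. In the transcript sums, fitted over 17324 genes, Lif rose by 2.54 ± 0.37, 5.82-fold (edgeR adjusted p = 0.000827).

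With W4 kept in WT as labelled, edgeR called 0 of 11698 genes (0% higher and 0% lower), although 3108 had an unadjusted p under 0.05, and DESeq2 called 589 and limma-voom 0. DESeq2 called 3 members with W4 in place, Edn2, Fgf2 and Stat3 (DESeq2 adjusted p = 0.0112, 0.0102 and 0.0265). The 9 members kept the directions given above, with log2 differences of 1.58 for Edn2, 1.54 for Socs3, 1.48 for Fgf2, 1.14 for Stat3, 0.88 for Ednrb, 0.80 for Cntf, 0.59 for Cntfr, 0.51 for Il6st and -0.88 for Lifr and edgeR adjusted p from 0.187 to 0.189. Lif differed by 1.61 ± 0.62 in the transcript sums (edgeR adjusted p = 0.205). All WT libraries are in batch 1, where the set tags still differ between WT and rd10 and cannot be told apart from genotype, and with batch 1 alone (W1 to W3 against D1 and D2) the members' log2 differences were 2.76 for Socs3, 1.79 for Edn2, 1.56 for Fgf2, 1.38 for Stat3 and -1.24 for Lifr. All 9 were called there, beside 4265 genes called higher and 4195 lower of 11698, and with W4 kept the batch 1 fit called 0 genes.

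The scaling bears on the smaller of these differences. Rod genes make up a large share of WT counts, so the libraries were also scaled to equal levels of 29 bipolar, amacrine and ganglion cell markers, which shifted the median log2 difference of all genes without W4 from -0.01 to -0.62 (to 0.19 with library size only). The split of called genes went from 3778 higher and 3502 lower to 900 higher and 8205 lower, or to 5409 and 2031 with library size only. Under the inner-retina scaling 6 members were still called higher, Socs3 at 2.08, Edn2 at 1.40, Fgf2 at 1.23, Stat3 at 0.90, Cntf at 0.64 and Ednrb at 0.60, and Lifr was lower by -1.71. Il6st at 0.10 and Cntfr at 0.22 were not called there (edgeR adjusted p = 0.293 and 0.17). Lif was at 1.96 under the same scaling.

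Halofantrine-treated rd10 retina was also set against WT, as the labels imply, with the same WT libraries as above. All WT libraries are in batch 1 and 2 of the 3 halofantrine libraries in batch 2. Without W4, the 9 members were again called, 8 higher and 1 lower, beside 35.7% of genes called higher and 36.2% lower. The log2 differences were 2.41 ± 0.20 for Socs3, 2.04 ± 0.15 for Edn2, 1.52 ± 0.10 for Fgf2, 1.28 ± 0.05 for Stat3, 1.22 ± 0.20 for Cntf, 0.95 ± 0.14 for Cntfr, 0.78 ± 0.25 for Ednrb, 0.61 ± 0.05 for Il6st and -1.27 ± 0.08 for Lifr. Ednrb had the largest edgeR adjusted p among them, 0.0204, the others lying between 7.26e-07 and 0.000497. Its call was lost without W1 (0.71, edgeR adjusted p = 0.0691) or W3 (0.67, edgeR adjusted p = 0.0679). Lif rose by 2.43 ± 0.23 (edgeR adjusted p = 2.22e-05). In log2 CPM against W1 to W3, the batch 1 library H1 and the mean of H2 and H3 were furthest apart for Ednrb (1.27 and 0.48), Cntf (0.75 and 1.40) and Cntfr (1.26 and 0.78). With W4, edgeR called 1 of 11699 genes, Gm45837, named here after its value was seen (0% higher, 0.00855% lower), and no member, while 4050 genes had an unadjusted p under 0.05 and DESeq2 called 2221, among them Edn2, Fgf2, Lifr, Cntfr and Stat3 (DESeq2 adjusted p from 0.00157 to 0.0493). The log2 differences with W4 were 1.64 for Edn2, 1.28 for Socs3, 1.19 for Fgf2, 0.93 for Stat3, 0.79 for Cntf, 0.71 for Cntfr, 0.46 for Ednrb, 0.43 for Il6st and -1.04 for Lifr (edgeR adjusted p from 0.135 to 0.332). Lif, at 1.51 ± 0.57 in the transcript sums with W4, was not called either (edgeR adjusted p = 0.156). Under the inner-retina scaling without W4, Ednrb at 0.11, Cntfr at 0.29 and Il6st at -0.05 were not called (edgeR adjusted p = 0.675, 0.0515 and 0.439), and the split of all calls was 969 higher and 8762 lower, against 4177 and 4231 with TMM and 5967 and 2447 with library size only. That scaling put the median of all genes at -0.68.

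**Figure D2:**
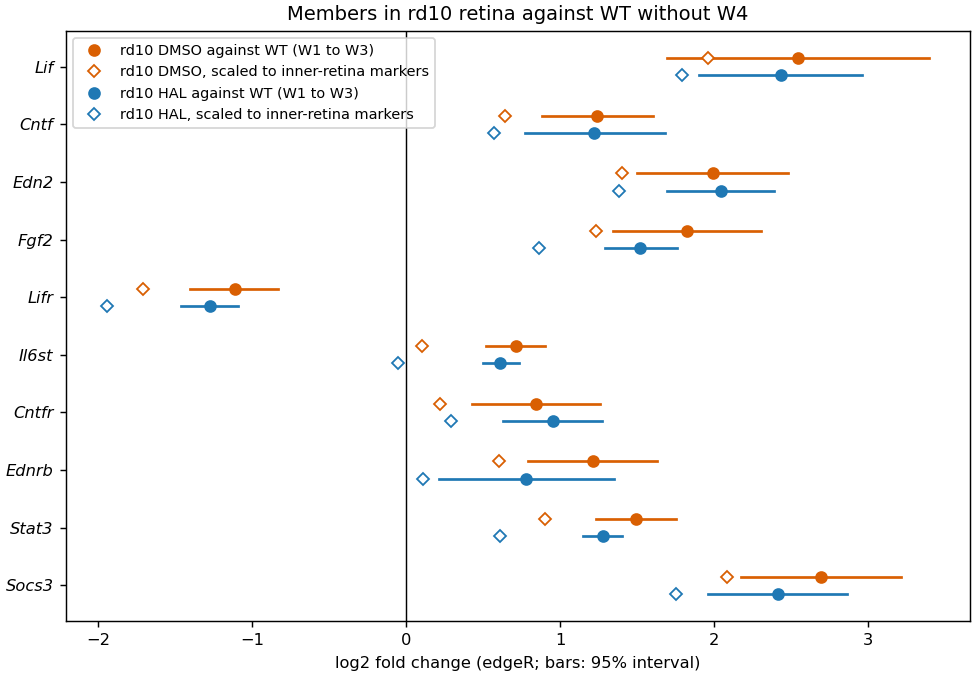
Log2 fold change of each member against W1 to W3 in rd10 DMSO (orange) and rd10 HAL (blue), filled circles with 95% intervals from edgeR and open diamonds for the inner-retina scaling without intervals; Lif comes from transcript sums. Lifr is the only member left of 0 under TMM scaling, and Il6st in rd10 HAL moves from 0.61 to -0.05 under the inner-retina scaling.

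The question of the treatment is whether the route differs between rd10 retinas given halofantrine and those given DMSO. No member was called among the 11692 genes tested, and edgeR called 0% of all genes, with 557 genes at an unadjusted p under 0.05, 3 called by DESeq2 and 0 by limma-voom. By edgeR the smallest unadjusted p among the 9 members were 0.0915 for Stat3 and 0.0944 for Socs3, and in DESeq2 and limma-voom too 0 of the 9 were under 0.05. The 2 groups overlapped for every member, including Lif, in CPM, whereas 6.18% of the 11702 genes lay lower with halofantrine without overlap and 6.91% higher. The 3 genes of DESeq2, Gm42047 and a pair without a symbol, are no members and were noted after their values were seen.

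The intervals of the difference, from the fits without a batch term, state how large a change these 6 libraries leave room for when batch is left aside. Stat3 differed by -0.21 on the log2 scale with a 95% interval from -0.46 to 0.04, and Socs3 by -0.27 with an interval from -0.60 to 0.06. For Il6st the difference of -0.09 had the narrowest interval, -0.27 to 0.10. Edn2 at 0.06 (-0.43 to 0.56), Cntf at 0.00 (-0.47 to 0.46), Lifr at -0.15 (-0.45 to 0.15), Cntfr at 0.12 (-0.36 to 0.59) and Fgf2 at -0.28 (-0.79 to 0.23) all had intervals that span 0. Ednrb at -0.42 (-0.99 to 0.14) and Lif at -0.12 (-0.87 to 0.63) were the least precisely measured. In these fits no interval of the 10 lies wholly on one side of 0, and edgeR adjusted p ran from 0.883 to 0.998 for the 9 and was 0.972 for Lif. With batch as a term, given next, 4 of the 9 had an unadjusted edgeR p under 0.05.

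Exact two-sided permutation tests of the mean log2 CPM, which cannot go below 0.1 with 3 libraries against 3, gave p = 0.3 for Stat3, Socs3 and Ednrb, 0.4 for Fgf2, Lifr and Il6st, and 0.7 to 1 for Cntfr, Cntf, Edn2 and Lif. With batch as a term in the fit, 4 of the 9 members had an unadjusted p under 0.05, beside 16.7% of all genes, and none was called. These were Cntfr at 0.32 ± 0.06, Fgf2 at -0.44 ± 0.11, Lifr at -0.25 ± 0.07 and Stat3 at -0.25 ± 0.09 (log2, SE; edgeR adjusted p from 0.268 to 0.271).

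Within batch 1, the difference of log2 CPM between H1 and the mean of D1 and D2 was -0.28 for Fgf2, -0.09 for Stat3, -0.15 for Socs3, -0.18 for Lifr and 0.24 for Cntfr. Within batch 2, the mean of H2 and H3 minus D3 was -0.58 for Fgf2, -0.41 for Stat3, -0.19 for Socs3, -0.32 for Lifr and 0.41 for Cntfr, the same signs as in batch 1. Cntf was at -0.37 and -0.02. For Edn2 (0.16 and -0.24), Ednrb (0.02 and -0.62), Il6st (-0.14 and 0.07) and Lif (-0.13 and 0.50) the sign differed between the batches. Each batch holds 1 library on one side of the comparison, so no test within a batch was made. In batch 1 the 3 libraries share the tag set2, whereas in batch 2 the tag differs between D3 and the halofantrine libraries and cannot be told apart from treatment.

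**Figure D3:**
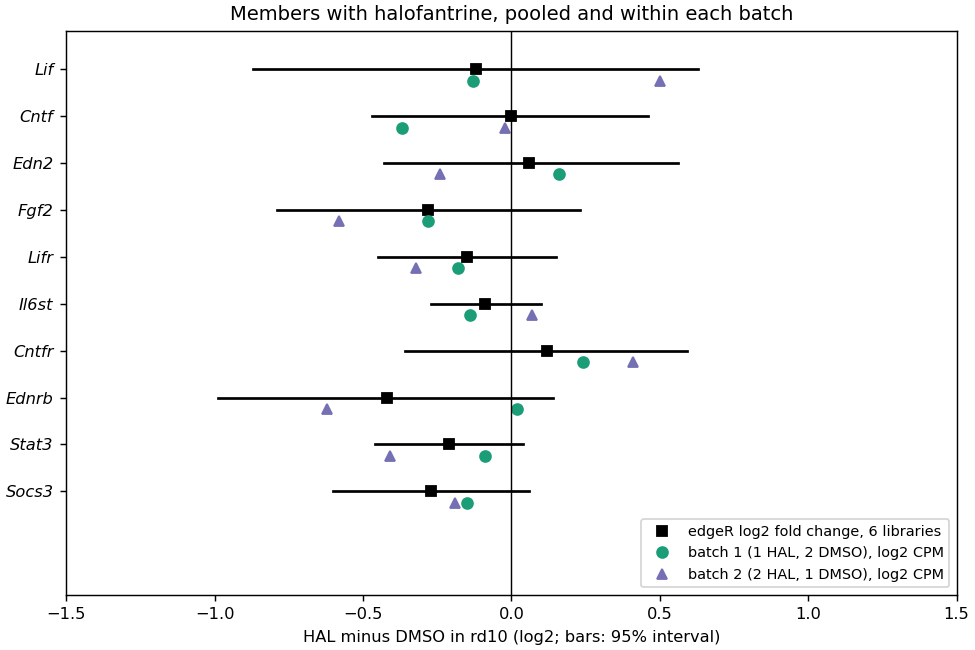
Halofantrine minus DMSO in rd10 for each member on the log2 scale, squares with 95% intervals for edgeR over the 6 libraries, circles and triangles for the difference of mean log2 CPM within batch 1 and batch 2. Every interval of this fit, which has no batch term, crosses 0, and the batch 2 value of Ednrb is -0.62 against 0.02 in batch 1.

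Batch 2 was compared with batch 1 in the 6 rd10 libraries with treatment as a covariate, which called 4.78% of 11692 genes. Of the 9 members, Fgf2 rose by 0.53 ± 0.11 (log2, SE, edgeR adjusted p = 0.0434) and Cntfr fell by 0.56 ± 0.06 (edgeR adjusted p = 0.00522) in batch 2. The call of Fgf2 was lost without D3 (0.39, edgeR adjusted p = 0.274), without D2 (0.60, 0.0616), H2 (0.56, 0.0852) or H3 (0.55, 0.093) and in the transcript sums (0.54, 0.0534), and both calls were lost without the treatment term (0.40 and -0.44). The remaining 7 were not called, with Lifr at 0.30 and Cntf at 0.48 nearest (edgeR adjusted p = 0.0566 and 0.0683). DESeq2 called both (DESeq2 adjusted p = 0.0177 and 0.0293), and without H1 edgeR called Lifr at 0.37 and Il6st at -0.24 (edgeR adjusted p = 0.0293 and 0.0271). All 12 rod markers were called higher in batch 2, with a median log2 difference of 1.23. Their summed level was 4220 and 4360 CPM in D1 and D2, 3990 in H1, 11700 in D3, 9890 in H2 and 8260 in H3, and its part in the values of Fgf2 and Cntfr was not tested. Of the other marker lists, 2 of 10 cone markers were called higher in batch 2. Called lower were 2 of 10 Müller glia, 2 of 10 bipolar, 2 of 9 amacrine and 1 of 6 endothelial and mural markers. The part of these lists was not tested either.

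The other genes of the route came from 6 lists chosen by textbook role, with genes that are no members. Their counts for rd10 DMSO without W4 stand beside 32.3% of all genes called higher and 29.9% lower with TMM, and beside 7.69% higher and 70.2% lower under the inner-retina scaling, which lowers the difference of all genes alike. For rd10 HAL without W4 the shares were 35.7% higher and 36.2% lower with TMM, and 8.28% higher and 74.9% lower under the inner-retina scaling. Of the 3 measured genes of the gp130 family list (10 listed), rd10 DMSO without W4 had 2 called higher and 0 lower. Osmr, the oncostatin M receptor, rose by 2.78 ± 0.15 on the log2 scale and Clcf1, a CNTF-like ligand, by 1.17 ± 0.16 (edgeR adjusted p = 1.58e-05 and 0.000542), while the interleukin-11 receptor chain Il11ra1 was at -0.12 ± 0.08. In rd10 HAL against W1 to W3, Osmr was at 2.45 and Clcf1 at 1.19, both called.

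Genes listed as STAT3 response genes had the highest median of the 6 lists. Of 12 measured (16 listed), 11 were called higher and 0 lower, with a median of 2.29 against -0.01 over all genes. Serpina3n, an acute-phase protease inhibitor, rose by 5.31 ± 0.24 (log2, SE), A2m, alpha-2-macroglobulin, by 4.43 ± 0.25, Gfap, the intermediate filament of reactive glia, by 3.32 ± 0.16 and Cd44, a hyaluronan receptor, by 2.83 ± 0.16, with edgeR adjusted p from 1.26e-05 to 1.84e-05. The immediate early gene Junb, named here because it alone was not called, was at 0.28 ± 0.35 (edgeR adjusted p = 0.504). In rd10 HAL it was at 0.99 ± 0.23, and all 12 were called higher there, beside 35.7% of all genes. Under the inner-retina scaling 8 of the 12 were called higher and 0 lower in rd10 DMSO, with a median of 1.67, and 8 higher and 2 lower in rd10 HAL. Several of these genes are also expressed by reactive Müller glia, astrocytes and microglia, whose marker levels are given above and also move with the genotype.

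The JAK-STAT relays and brakes had a median near that of all genes. Of 16 measured (18 listed), 7 were called higher, 4 lower and 5 neither, with a median of 0.08 against -0.01 over all genes. Stat6, a STAT of interleukin-4 signalling, rose by 1.36 ± 0.11 and the brake Socs2 by 1.16 ± 0.11 (log2, SE; edgeR adjusted p = 6.56e-05 and 0.000108). Pias3, an inhibitor of STAT3, fell by 1.66 ± 0.13 and Socs7 by 0.60 ± 0.06 (edgeR adjusted p = 4.87e-05 and 0.000112). Jak1 and Jak2, the kinases bound to gp130, named after their values were seen, were at 0.02 ± 0.06 and 0.04 ± 0.06 and were not called. Under the inner-retina scaling 3 were called higher and 11 lower, with a median of -0.53 against -0.62 over all genes.

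In the FGF list, 16 of 19 measured genes (21 listed) were called higher, 1 lower and 2 neither, with a median of 0.77. The measured genes include Fgf11, Fgf12, Fgf13 and Fgf14, whose part in the route was not tested, so these counts do not describe FGF receptor signalling alone. The receptor Fgfr1 rose by 1.5 ± 0.09, the transcription factor Etv5, a target of FGF signalling, by 1.02 ± 0.09 and the inhibitor Spred2 by 0.81 ± 0.09, while the inhibitor Spry2 fell by 1.16 ± 0.08 (log2, SE; edgeR adjusted p from 2.52e-05 to 0.000167). Under the inner-retina scaling 4 were called higher, 4 lower and 11 neither, with a median of 0.16 against -0.62 over all genes. The 2 endothelin-list genes in the gene tables (6 listed), the endothelin-converting enzymes Ece1 at 1.04 ± 0.09 and Ece2 at 0.57 ± 0.06, were both called higher (edgeR adjusted p = 7.83e-05 and 0.000217), and 1 of them under the inner-retina scaling. In the transcript sums, 3 further endothelin-list genes could be tested. The receptor Ednra was called higher at 0.97 ± 0.20 (edgeR adjusted p = 0.0053), and the ligands Edn1 at 0.75 ± 0.31 and Edn3 at 2.92 ± 1.08 were not called (edgeR adjusted p = 0.0802 and 0.0524).

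Among other survival factors and receptors, 10 of 13 measured genes (19 listed) were called higher, 1 lower and 2 neither, with a median of 0.55. The GDNF receptor chains Ret and Gfra1 rose by 0.98 ± 0.07 and 0.99 ± 0.08, the BDNF receptor Ntrk2 by 1.08 ± 0.14, and Nxnl1, the gene of rod-derived cone viability factor, fell by 3.74 ± 0.29 (log2, SE; edgeR adjusted p from 3.79e-05 to 0.000384). The fall of Nxnl1, a photoreceptor gene, stands beside the fall of the summed rod markers. Under the inner-retina scaling 3 were called higher, 4 lower and 6 neither in this list, with a median of -0.05 against -0.62 over all genes. With W4 kept in WT no gene of the 6 lists was called by edgeR, and 28 of the 65 tested (43.1%) had an unadjusted p under 0.05, against 26.6% of all genes. The medians with W4 were 1.39 for the STAT3 response genes, 0.77 for the gp130 family, 0.55 for the endothelin list, 0.53 for the FGF list, 0.39 for the other survival factors and 0.07 for the JAK-STAT list. Serpina3n was then at 2.30 ± 1.31, A2m at 2.03 ± 1.14, Gfap at 1.69 ± 0.88 and Cd44 at 1.61 ± 0.71 (edgeR adjusted p from 0.189 to 0.234).

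Further list genes outside the gene tables were tested in the transcript sums, where 4657 of 17324 genes were called higher and 4421 lower in rd10 DMSO without W4. Of the gp130 family list 1 of 4 was called higher, of the STAT3 response genes 2 of 3, of the JAK-STAT list 1 of 1 and of the FGF list 0 of 2, with 0 lower in each. Of the other survival factors 2 of 4 were called higher and 1 lower. Like the endothelin genes above, those named next come from outside the naming rule and were chosen after their values were seen. They are the interleukin-6 receptor Il6ra at 1.81 ± 0.28 and Timp1, an inhibitor of metalloproteases, at 3.27 ± 0.21 (log2, SE; edgeR adjusted p = 0.00115 and 2.73e-05).

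In rd10 HAL against rd10 DMSO, edgeR, DESeq2 and limma-voom called no gene of any of the 6 lists. By edgeR, 5 of the 65 list genes in the gene tables (7.69%), named for this reason, had an unadjusted p under 0.05, against 4.76% of all genes. They were Osmr at -0.33 ± 0.08, Bcl3 at -0.39 ± 0.14, Serpina3n at -0.24 ± 0.10, Vim at 0.25 ± 0.10 and Igf1 at -0.19 ± 0.07 (log2, SE, edgeR adjusted p = 0.883 for each). In the transcript sums, Timp1 at -0.57 ± 0.19 and Nrtn, the ligand neurturin, at 2.39 ± 0.81 were also under 0.05 (unadjusted p = 0.0183 and 0.0193, edgeR adjusted p = 0.91 for both) and no list gene was called. The medians of the lists lay between -0.13, for the STAT3 response genes, and 0.02.

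**Figure D4:**
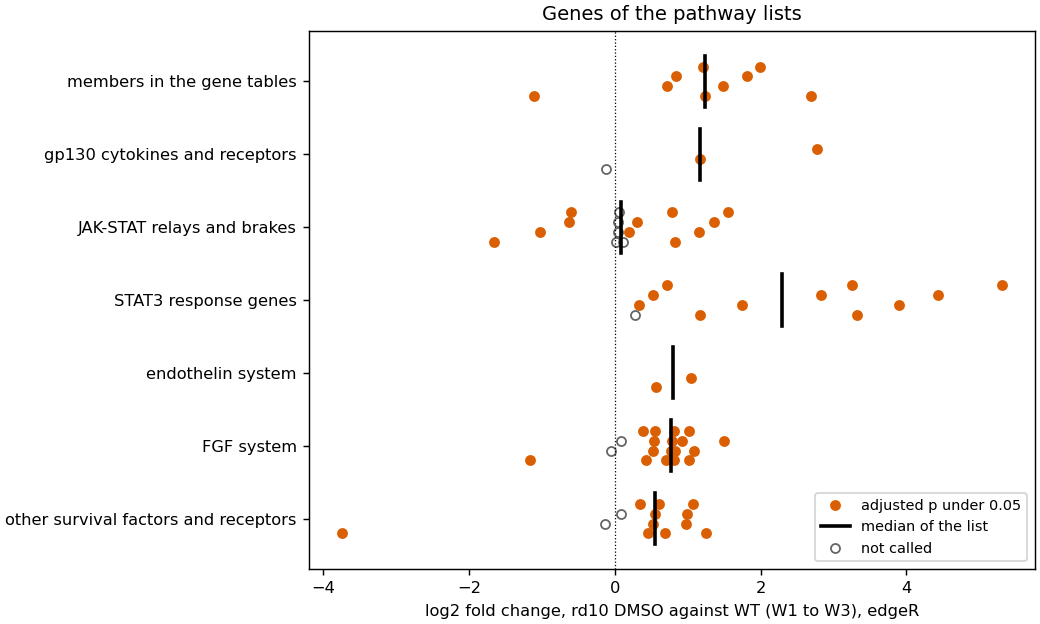
Log2 fold change in rd10 DMSO against W1 to W3 for the 9 members of the gene tables and the measured genes of the 6 lists, filled where the edgeR adjusted p was under 0.05, with a vertical bar at each median. The STAT3 response genes have a median of 2.29 and the JAK-STAT genes one of 0.08; vertical offsets within a row only separate the points.

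The transcript table splits each member into its annotated transcripts, as estimated shares of the gene's counts. Fgf2 came from Fgf2-208 (154 codons) for 97.1% to 98.9% in the 10 libraries, Socs3 from Socs3-201 (225 codons) for 97.4% to 100%, and Cntf and Edn2 from their only annotated transcript (198 and 175 codons). Il6st was divided between Il6st-201, at 53.0% to 58.3%, and Il6st-203, at 38.4% to 45.0%, which both have 917 codons. Lifr-203 (1092 codons) held 85.8% to 92.8% of Lifr. For these genes the leading transcript was the same in every library.

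The receptors Ednrb and Cntfr and the ligand Lif had shares that varied between libraries of 1 group. Ednrb-202 ranged from 16.3% to 70.8% in WT, though its 3 transcripts all have 442 codons, and Cntfr-204 (372 codons) from 79.2% to 95.8% in rd10 DMSO and 59.7% to 79.0% in rd10 HAL. Lif-201 (158 codons) was at 100%, 0% and 100% in W1 to W3, where the gene has 14.0 to 18.0 counts, so its split is not readable at this depth.

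Stat3-203 (770 codons) made up 80.7% to 87.8% of Stat3. Stat3-201, which has 769 codons, was at 3.8%, 3.9% and 4.4% in W1 to W3, 4.1%, 3.9% and 4.3% in D1 to D3 and 6.8%, 7.1% and 8.0% in H1 to H3, with W4 at 6.6%. The halofantrine libraries lay above the DMSO libraries for this transcript, which was singled out after its values were seen. Of the 22 member transcripts with a mean share of 1% to 99%, 4 did not overlap between the rd10 groups, against 12.4% of 42774 such transcripts of all genes. The other 3, all lower with halofantrine, were 1 each of Lifr and Stat3 and the leading Cntfr-204, whose highest halofantrine share was 79.0% and lowest DMSO share 79.2%.

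The genes whose level ran most alike over the 10 libraries were taken by Pearson's r of log2 CPM, as a description that largely follows the split between W1 to W3 and the other libraries. For Socs3 they were Ndnf (0.996), Dpp6 (0.995) and Astn1 (0.995). For Edn2 they were Arhgef7 (0.984), Inpp5a (0.983) and Lrrc8c (0.982), and for Fgf2 E2f6 (0.986), Dnhd1 (0.985) and again Lrrc8c (0.983). Lrrc8c, a subunit of volume-regulated anion channels, was at 15.5 to 17.6 CPM across W1 to W3, 32.1 in W4, 35.1, 39.4 and 52.4 in D1 to D3 and 37.5, 46.7 and 43.5 in H1 to H3. It shared with Edn2 and Fgf2 the highest DMSO level in D3 and a W4 level below every rd10 library. Since it was picked by its r with both over these same libraries, this adds nothing beyond that r.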

How the data were processed

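The authors isolated RNA, made strand-specific polyA libraries, pseudoaligned the reads with kallisto to Ensembl 115 mouse transcripts (GRCm39, per the labels) and imported them with tximport. They deposited estimated counts per transcript (275112) and per gene (11702), not normalized. The deposited normalized gene values are the same counts divided by 1 factor per library. Since they sum to 943804 to 1127682, they were treated as a signal scaled by the authors and used only for a check. The deposited table of the authors' halofantrine comparison (fold changes and p-values) was not used, and 0 sample columns were left unused.

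Symbols came from a reference table (11492 of 11702 identifiers matched). Estimated counts (51.4% of them exactly whole, with a tolerance of 0) were rounded, filtered by filterByExpr, scaled by TMM and tested with edgeR 4.0.16 (quasi-likelihood F-test, R 4.3.3), with Benjamini-Hochberg adjustment over all genes and a threshold of 0.05. Standard errors were taken from the F statistic, and intervals (95%) from the test's degrees of freedom. Log2 CPM used a prior count of 2. Only the groups compared entered a fit. Lif, and transcript sums as an alternative, used transcripts assigned by GENCODE M21 (GRCm38), which held 97.4% to 97.7% of each library's transcript counts. Alternatives were DESeq2 1.42.0, limma-voom (limma 3.58.1), other scalings and filters, batch terms, 1 fit over all 10 libraries and leaving out each library. The main fits, except that of rd10 HAL against WT with W4 kept, were first run on simulated gene counts with known changes. DESeq2 and limma-voom were run on them too. The simulation gave all genes the same dispersion and held no library like W4. Other alternatives were not simulated, among them the other scalings, batch as a term for halofantrine, the fit over all 10 libraries and the transcript sums. Between libraries of a group the chi-square per gene was 4.48 to 431, and no pair was counted as 1 sample.

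Genes named are the 10 members, Pde6b, up to 4 genes per list with the smallest unadjusted p in rd10 DMSO against W1 to W3, the 3 genes most alike to Edn2, Socs3 and Fgf2, each member's leading transcript, and others where the text says why. Members and lists were chosen with earlier results of these data known.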

Additional observations from a re-analysis of the deposited data

Results flagged for a closer look

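In the WT DMSO group, 21 levels were examined for a library far from the others (Dixon's ratio of gap to range over the 4 libraries, whose limit chance passes in about 1 of 20 groups), and 15 passed, all through W4. W4 had already been set apart by Pde6b, which is among these levels and among the rod markers. The levels also move together, so the 15 cannot be read against that rate and are a description only. For the members W4 was at 11.4 CPM for Cntf, 15.5 for Edn2, 69.2 for Fgf2, 215 for Il6st, 162 for Stat3, 15.7 for Socs3 and, in transcript sums, 3.83 for Lif, each time the highest WT library. It was the lowest for Pde6b, at 93.1 CPM, and for the summed rod markers, at 3120 CPM. For summed markers it was the highest, at 8340 CPM for Müller glia, 126 for astrocytes, 163 for microglia, 2740 for bipolar, 2610 for amacrine and 1620 for ganglion cells. The labels give W4 as WT, and whether the label or the animal differs was not tested.

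For Il6st the difference between halofantrine and DMSO had opposite signs in the 2 batches in every library, -0.14 in batch 1 and 0.07 in batch 2, a gap of 0.21 on the log2 CPM scale. This gap was not tested.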

How the results depend on the processing

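The count of called genes rests on W4. For rd10 DMSO against WT as labelled it was 0, and 589 with DESeq2, 1 (Gm6361) with transcript sums over all genes and 0 to 7280 leaving out each library, the highest without W4. For rd10 HAL against WT it was 1, and 2221 with DESeq2, 0 with limma-voom or 1 fit over all 10 libraries and 0 to 8408 leaving out each library, again highest without W4. Without W4 the counts of 7280 and 8408 stayed within 1.5-fold under every alternative run, at 6154 to 8460 and 7648 to 8234 leaving out a further library. For rd10 HAL against rd10 DMSO the count was 0, and 3 with DESeq2 and 0 to 7 leaving out each library (7 without D2, 1 without D1). For batch 2 against batch 1 it was 559, and 1429 with DESeq2, 218 without the treatment term and 88 to 2635 leaving out each library: 88 without D3, 2635 without H1 and 212 to 217 without any of the other 4. The cause was not tested.

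Of the alternative log2 differences of the members, 718 kept direction and side of the threshold, 32 gained a call, 13 lost one and 14 changed sign. The 30 shares of the leading transcripts moved by no more than 1 SD when counts were pooled over a group. The sign changes were small: for halofantrine against DMSO, Cntf was at 0.02 with limma-voom, 0.00 with transcript sums and 0.10 and 0.18 without D3 and H1 (-0.12 to 0.18 leaving out each library), Edn2 at -0.04 with batch as a term and -0.11 without D1 or H2 (-0.11 to 0.26), Cntfr at -0.06 without D3 or H1 (-0.06 to 0.23), and Lif at 0.32 and 0.05 without D2 and H3 (-0.36 to 0.32). Against WT under the inner-retina scaling, Il6st in rd10 HAL was at -0.04 with W4 and -0.05 without. Stat3 between the batches was at 0.00 without D3 (0.00 to 0.31). Transcript sums, fits of Lif, and leaving out a library where W4 was already left out were chosen after seeing the data. No paired analysis was possible because the replicate numbers were given in accession order and name no shared animal, litter or day. Low counts limit Lif and Socs3 in W1 to W3, and 3 libraries a group limit the halofantrine comparison.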
